A study of Mus musculus with 10 samples.

Results

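Group 2 innate lymphoid cells (ILC2) are lymphocytes without a rearranged antigen receptor. They depend on the transcription factor Gata3 and respond to the alarmins IL-33 and IL-25, which damaged tissue and epithelial cells release. Once activated they are known for secreting type 2 cytokines such as IL-5 and IL-13, and in the central nervous system they have been found mainly in the meninges and the choroid plexus. The ILC2 described here are the cells that carried this name in the authors' annotation of CD45+ brain cells and that were absent from their annotation of the microglia. There were 157 ILC2 among 4925 such non-microglial cells and among 45472 cells in all. They were set against the 1598 T cells and the 548 NK cells of the same annotation.

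Whole brains were collected from WT mice, from Nlrp3KO mice, which lack the inflammasome sensor Nlrp3 in every cell of the body, from APP/PS1 mice, which carry transgenes for mutant human amyloid precursor protein and presenilin 1, and from littermates that carried both the transgenes and the Nlrp3 deletion (Nlrp3KO APP/PS1). WT and Nlrp3KO mice were 3, 6 or 9 months old, and the mice with the transgenes were 3 or 9 months old. Each of the 10 libraries was made from sorted CD45+ cells of 3 mice (2 males and 1 female) that were pooled, so that a genotype at an age is 1 library, and each age is 1 batch of the annotation. Nlrp3 transcripts were listed at 0 in the microglia of all 5 Nlrp3KO libraries and lay between 34.4 and 53.7 CPM (UMIs of the gene per 1000000 UMIs of these cells) in those of the 5 libraries with the intact gene. Counts of unique molecular identifiers (UMIs) numbered 916719 over the ILC2 and between 23553 and 218595 per library. The median ILC2 held 5622 UMIs and 1901 genes, the median T cell 5810 UMIs and the median NK cell 5989 UMIs. Ribosomal protein genes took a median of 36.8% of the UMIs of an ILC2, against 33.4% in T cells and 24.8% in NK cells. Of the barcodes in the 10 libraries, 246 of 45225 occurred in more than 1 library, and 1 of these belonged to an ILC2.

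One library stood apart by its doublet scores. WT at 6 months gave 30 of the 157 ILC2, and 3 of its ILC2 had a doublet score over 0.5. In the remaining 9 libraries 1 ILC2 did, in Nlrp3KO APP/PS1 at 3 months, which gave 42 ILC2. These 4 cells held 440 of the 581 UMIs of 6 microglial markers (among them P2ry12, Tmem119, Csf1r, Cx3cr1 and Sall1) found in ILC2. The summed level of the 6 markers was 1889 CPM in the ILC2 of WT at 6 months and between 60.6 and 523 CPM in the other 9 libraries, and it fell to 156 CPM in WT at 6 months without the 3 cells. Its median over 9 libraries was 158 CPM in ILC2, 462 CPM in T cells and 965 CPM in NK cells. Values of ILC2 that rest on this library are given with and without it.

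The label was first compared with the marker genes. Gata3, the transcription factor that specifies the lineage, was present in 151 ILC2 (96.2%), at 901 CPM in the pooled ILC2 against 67.7 CPM in T cells and 79.1 CPM in NK cells. Il1rl1 encodes ST2, the receptor for IL-33, and was present in 149 ILC2 (94.9%). Its level was 588 CPM in ILC2, 1.93 CPM in T cells and listed at 0 in NK cells, at least 694-fold lower than in ILC2. Rora, a nuclear receptor needed for ILC2 development, reached 228 CPM in ILC2, 91.7 CPM in T cells and 29.1 CPM in NK cells. All 3 genes were detected in 91 ILC2, 2 of the 3 in 59 and 1 of them in 7, and no ILC2 lacked all 3 (0 of 157 cells, exact 95% upper limit 2.32%). The authors clustered the cells on highly variable genes of the same counts, which may include these 3. Levels of ILC2 against T and NK cells are therefore descriptions without a test.

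Across the 9 libraries with at least 5 ILC2, Gata3 ranged from 769 to 1194 CPM with a median of 944 CPM (mean 967 ± 149, SD, n = 9). Il1rl1 ranged from 432 to 934 CPM with a median of 638 CPM (634 ± 149), and Rora from 142 to 412 CPM with a median of 244 CPM (258 ± 99.2). In each of the 9 libraries the level of all 3 genes was higher in ILC2 than in the T cells and in the NK cells of the same library. The lowest Gata3 value was that of WT at 6 months, which held 3 of the 4 ILC2 with a doublet score over 0.5. The lowest Il1rl1 value was that of WT at 9 months.

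**Figure D1:**
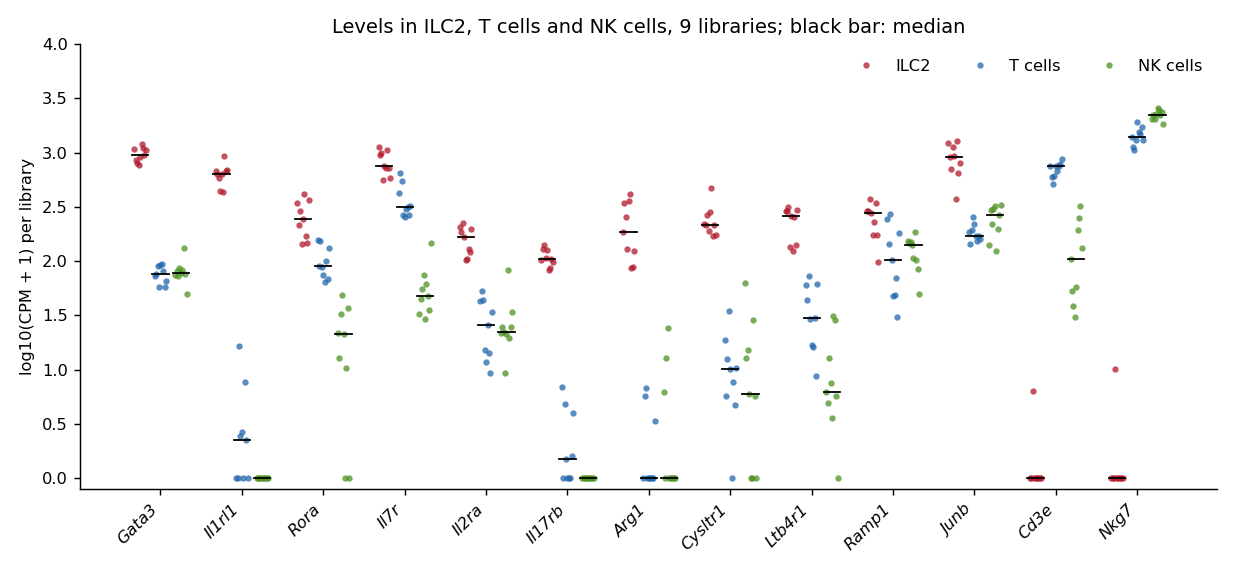
Levels of 13 genes, as log10(CPM + 1), in ILC2 (red), T cells (blue) and NK cells (green) of the 9 libraries with at least 5 ILC2, with 1 point per library and a black bar at the median. Gata3 lies between 769 and 1194 CPM in ILC2, and Il1rl1, Il17rb and Arg1 are near 0 in most T and NK libraries, while Cd3e and Nkg7 are at or near 0 in ILC2.

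Defining genes of other lymphocytes were nearly absent. The CD3 chains Cd3d and Cd3e gave 2 UMIs and 1 UMI in all ILC2, against 968 and 730 CPM in T cells. Trac, the constant region of the T cell receptor alpha chain, gave 1 UMI, Cd8a gave 1 UMI, and Cd4 and Cd8b1 were listed at 0. Of 7 NK cell markers, 6 were at 0 in ILC2 (Ncr1, Klrb1c, Eomes, Gzma, Klre1 and Klra8) and Prf1 gave 1 UMI. Fcer1a, Ms4a2, Mcpt8 and Gata2, which mark mast cells and basophils, were at 0, and Cpa3 gave 2 UMIs.

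Some transcripts of antigen receptor loci were nevertheless frequent in ILC2. Trbc2 and Trbc1, the constant regions of the T cell receptor beta chain, were detected in 75.8% and 57.3% of ILC2, at 584 and 227 CPM. Tcrg-C4, a constant region of the gamma chain, was detected in 67.5% of ILC2 against 21.9% of T cells and 36.7% of NK cells, and its level of 256 CPM was 3.47-fold that of T cells. A transcript of Trbc1, Trbc2, Tcrg-C1 or Tcrg-C4 was found in 149 of 157 ILC2, whereas Trdc, of the delta chain, gave 4 UMIs. The CD3 gamma chain Cd3g was detected in 15.9% of ILC2 (78 UMIs, in 9 of 10 libraries), at 85.1 CPM and thus 17.6-fold lower than in T cells. Ighm, the immunoglobulin mu heavy chain, was found in 55.4% of ILC2 at 159 CPM, against 166 CPM in NK cells, 70.7 CPM in T cells and 267.5 CPM in microglia, while the B cell genes Cd79a and Ms4a1 were at 0. Near-identical constant regions can share reads, so the values of Trbc1, Trbc2 and the Tcrg-C genes are uncertain.

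The 20 genes with the largest log2 ratio of ILC2 over both T and NK cells, among those with at least 50 UMIs in ILC2, were led by Il1rl1. Several of them encode receptors. Il17rb, the receptor for IL-25, was at 116 CPM in ILC2 and at 1.25 CPM in T cells, Il9r, the receptor for the growth factor IL-9, at 65.5 and 1.25 CPM, and Ptgir, the prostacyclin receptor, at 78.5 and 0.578 CPM. All 3 were listed at 0 in NK cells. Cysltr1, which binds cysteinyl leukotrienes, was at 248 CPM in ILC2 against 11.7 CPM in T cells and 12.4 CPM in NK cells. The chemokine receptor Ccr9, known for directing lymphocytes to the gut, was at 225 CPM in ILC2, 4.72 CPM in T cells and 0 in NK cells, and at 71.0 CPM (83 UMIs) in the 204 NKT cells.

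Among transcriptional regulators, Pparg, a fatty acid-sensing nuclear receptor, was at 64.4 CPM in ILC2, 0.578 CPM in T cells and 0 in NK cells, and Hes1, a target of Notch signaling, at 145 CPM against 0.867 and 6.50 CPM. Dach2, a transcriptional cofactor, was at 57.8 CPM in ILC2. The enzymes were Arg1, arginase 1, Alox5, the first enzyme of leukotriene synthesis, Hs3st1, a heparan sulfate sulfotransferase, Chdh, choline dehydrogenase, and Rnf128, an E3 ubiquitin ligase also called GRAIL. Arg1 reached 214 CPM in ILC2 against 0.771 CPM in T cells and 7.06 CPM in NK cells, and was detected in 47.8% of ILC2, 0.313% of T cells and 1.64% of NK cells. Rnf128 reached 271 CPM in ILC2, 59.7-fold the level of T cells and 35.5-fold that of NK cells. Calca, which encodes the neuropeptide CGRP, was at 100.4 CPM in ILC2, 0.482 CPM in T cells and 4.80 CPM in NK cells. The remaining genes were Stxbp6, Pard3, a regulator of cell polarity, Tmem158, Prnp, the prion protein, and Ccdc184, at 58.9 to 108 CPM in ILC2. Of the 20 genes, 13 were also among the leading 20 when the minimum was 20 UMIs in ILC2.

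**Figure D2:**
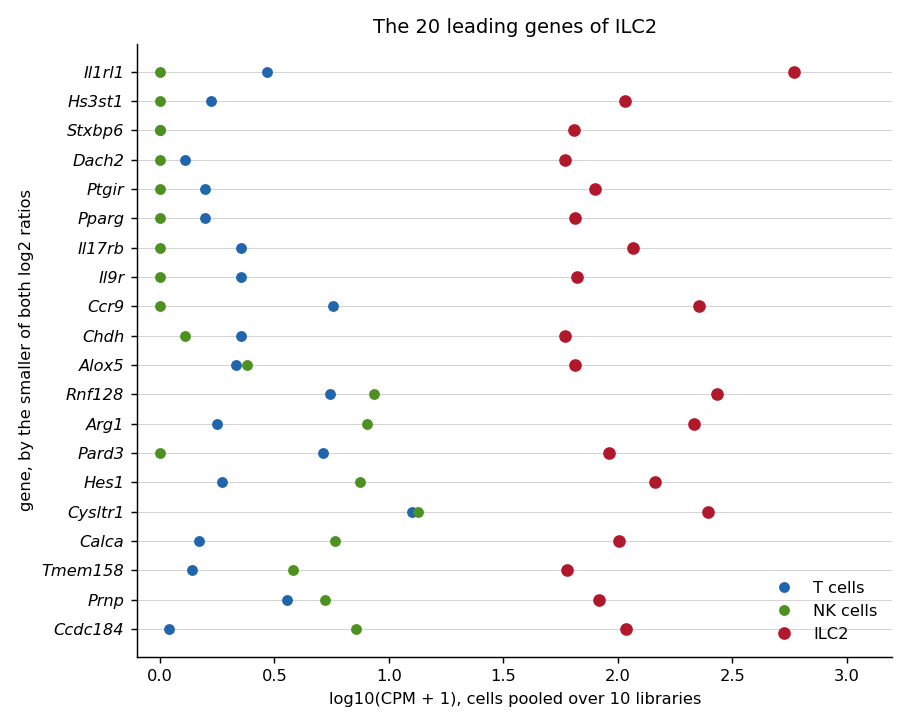
Pooled level, as log10(CPM + 1), of the 20 leading genes in ILC2 (red), T cells (blue) and NK cells (green), ordered by the smaller of the log2 ratios against T cells and against NK cells. The ILC2 values run from 57.8 CPM (Dach2 and Chdh) to 588 CPM (Il1rl1), and no T or NK value exceeds 12.4 CPM.

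Because Gata3 marks these cells, the 250 bases before each annotated start (RefSeq, build GRCm38.p6) of the 20 leading genes were searched on both strands for the GATA words AGATAA (with its variant AGATAG) and TGATAA (with its variant TGATAG). The words can overlap one another, but the 5 matches described below for Il1rl1 do not. Of the 16 genes with a promoter in the table, 5 (31.2%) held at least 1 word, against 29.7% of all 27025 genes, so the share was near that of all genes. Il1rl1 has a start on the plus strand with 5 words before it, which 14 of 32851 promoters (0.0426%) equalled or exceeded, and a second start further into the gene with 1 word. Both stretches are shown since Il1rl1 leads the list, with the words or their reverse complements in capitals. A match is a description of the sequence and was not tested as a binding site.
Il1rl1, first start, chr1:40429320-40429569, plus strand: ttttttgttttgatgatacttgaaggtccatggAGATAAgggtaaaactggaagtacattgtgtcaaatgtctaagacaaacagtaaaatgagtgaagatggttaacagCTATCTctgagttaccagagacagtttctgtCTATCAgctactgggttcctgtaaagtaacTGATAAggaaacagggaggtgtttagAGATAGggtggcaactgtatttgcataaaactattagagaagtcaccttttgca
Il1rl1, second start, chr1:40439379-40439628, plus strand: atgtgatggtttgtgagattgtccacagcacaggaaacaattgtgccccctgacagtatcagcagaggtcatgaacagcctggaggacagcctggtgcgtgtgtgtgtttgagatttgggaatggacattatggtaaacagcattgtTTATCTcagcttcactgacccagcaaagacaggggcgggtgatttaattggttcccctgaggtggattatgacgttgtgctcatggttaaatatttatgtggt

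Il17rb and Chdh, both among the 20 leading genes, start head to head on chromosome 14, with Il17rb on the minus strand and Chdh on the plus strand. Such an arrangement within 250 bases was found for 2349 of 27025 genes (8.69%), and for 2 of the 16 leading genes with a promoter in the table. Chdh was detected in 40 ILC2 and Il17rb in 66, and 23 cells held both. The 103 bases between both starts hold none of the 4 words and are shown because they precede both genes.
Il17rb and Chdh, chr14:30008897-30008999, plus strand: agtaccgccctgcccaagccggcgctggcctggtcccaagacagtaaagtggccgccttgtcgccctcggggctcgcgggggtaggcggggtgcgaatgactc

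Gene lists were described by how many of their measured members (at least 50 UMIs over ILC2, T and NK cells) were at least 2-fold higher, or at least 2-fold lower, in ILC2 than in both T and NK cells, by log2 ratios with a prior count of 2. Of all 9945 measured genes, 4.3% were higher by this rule and 4.53% were lower. Without the prior count, and with a gene at 0 set to 3 counts, these shares were 3.28% and 7.77%, and members that then changed sides are named with their list. This setting, and leaving out Arg1 below, were chosen after seeing the data. The minimum includes ILC2, so a gene can reach it only through its ILC2 UMIs, which favors a count as higher. This held for Il1rl1, Il17rb, Il9r, Pparg, Il4, Calca, Ptgir, Vipr2, Arg1, Alox5 and Ccr9, all of them counted as higher below. The lists also hold the markers Gata3, Il1rl1 and Rora, so these counts are descriptions without a test. Of 18 transcription factors, 3 were higher (Gata3, Rora and Pparg) and 5 were lower (Tcf7, Zbtb16, Runx3, Tbx21 and Eomes). Zbtb16 was at 0 in ILC2, which with 3 counts bounds it at only 1.55-fold lower than in NK cells, and without the prior count Tox took its place. Tbx21 and Eomes, which drive type 1 and cytotoxic programs, were at 0 in ILC2, at least 11.99-fold and 19.03-fold lower than in T cells. Tcf7, a factor of early lymphoid development, was at 4.36 CPM in ILC2 and at 97.3 CPM in T cells. Id2, which all innate lymphoid cells need, was at 1006 CPM in ILC2 and 933 CPM in T cells, and Bcl11b at 213 and 286 CPM. Foxp3, the factor of regulatory T cells, was at 0.

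**Figure D3:**
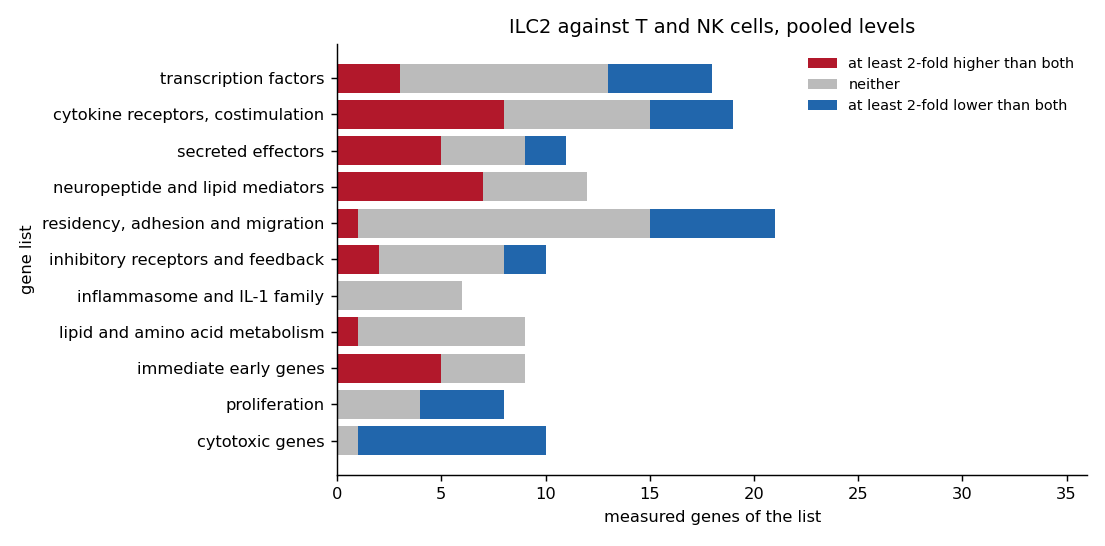
Number of measured genes of each list that were at least 2-fold higher than both T and NK cells in pooled ILC2 (red) by log2 ratios with a prior count of 2, at least 2-fold lower than both (blue) or neither (grey). The list of neuropeptide and lipid mediator genes has 7 of 12 genes higher and none lower, and the cytotoxic list has 9 of 10 genes lower.

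Receptors for alarmins, cytokines and costimulation had 8 of 19 measured members higher in ILC2 (Il1rl1, Il17rb, Il7r, Il2ra, Il9r, Tnfrsf25, Icos and Icosl) and 4 lower (Il2rb, Il18r1, Cd2 and Cd28). Without the prior count Icosl was 1.97-fold higher than in NK cells and left 7 higher. Il7r, the receptor for the survival factor IL-7, was at 789.8 CPM in ILC2, 304 CPM in T cells and 50.01 CPM in NK cells, and ranged from 563 to 1118 CPM over 9 libraries. Il2ra, the high-affinity chain of the IL-2 receptor, was at 161 CPM in ILC2 against 18.0 and 20.9 CPM, while the beta chain Il2rb was at 33.8 CPM in ILC2 against 225 and 993 CPM. Il18r1, of the receptor for the alarmin IL-18, was at 14.2 CPM in ILC2 against 117 CPM in T cells, and at 8.06 CPM in ILC2 without WT at 9 months. Crlf2, the receptor for the third alarmin TSLP, was at 53.5 CPM in ILC2 and at 76.4 and 104 CPM in T and NK cells. The costimulatory receptor Icos was detected in 53.5% of ILC2 and its ligand Icosl in 14.7%, against 28.2% and 5.26% of T cells. Klrg1, an inhibitory receptor of mature ILC2, was detected in 29.3% of ILC2, 3.00% of T cells and 12.8% of NK cells. Kit, the receptor for stem cell factor, was at 77.5 CPM in ILC2 (28.7% of cells) against 0.867 CPM in T cells and 9.89 CPM in NK cells.

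Type 2 cytokines gave few or no UMIs in these ILC2. Il5 and Il13 gave 1 UMI each, and Il9, Il10, Il22, Il17a and Ifng were at 0, which allows up to 3.27 CPM. Il4 was the exception, with 28 UMIs in 26 cells (30.5 CPM), against 2.99 CPM in T cells and 1 UMI in NK cells. In the 204 cells annotated as NKT cells, Il4 was at 39.4 CPM (46 UMIs), above the level of ILC2. Of 11 measured secreted effectors, 5 were higher in ILC2 (Il4, Il2, Csf2, Calca and Bmp7) and 2 were lower (Ccl5 and Ifng). Csf2, the cytokine GM-CSF, was found in 15.9% of ILC2 at 44.7 CPM, 11.9-fold the level of T cells. Bmp7, a growth factor of the TGF-beta family, was found in 41.4% of ILC2 at 94.9 CPM against 8.48 CPM in both T and NK cells, and was detected in all 10 libraries. Ltb, lymphotoxin beta, was detected in 99.4% of ILC2 at 1305 CPM, 1.38-fold the level of T cells. Il6 gave 14 UMIs in 13 ILC2, against 0.675 CPM in T cells.

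Several effectors were carried by few cells or by 1 library. Calca gave 92 UMIs in 24 ILC2, 12 of them in 1 cell. Its level was 373 CPM in WT at 3 months, 552 CPM in Nlrp3KO at 9 months and at most 149.7 CPM in the other libraries, and it was at 0 in APP/PS1 at 3 months and in WT at 9 months. Areg, amphiregulin, a repair factor, gave 33 UMIs in 4 ILC2, of which 30 were in 1 cell of WT at 6 months. Without this library the pooled level of Areg fell to 1.43 CPM. Ccl1 gave 12 UMIs in 4 ILC2, 9 of them in 1 cell of Nlrp3KO APP/PS1 at 3 months, and the pooled level was 1.37 CPM without that library. Ccl5 was at 31.6 CPM, and at 12.9 CPM without WT at 6 months, against 5610 CPM in T cells. Csf2 gave 41 UMIs in 25 ILC2, 15 of them in Nlrp3KO at 6 months, where 1 cell held 8. Il2 gave 35 UMIs in 23 ILC2, 7 of them in 1 cell of WT at 3 months.

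The list of receptors and enzymes of neuropeptides and lipid mediators, which also holds arginase 1, had 7 of 12 measured members higher in ILC2 (Vipr2, Ramp1, Ptgir, Cysltr1, Ltb4r1, Arg1 and Alox5) and none lower. Of the 7, Vipr2, Ptgir, Arg1 and Alox5 reached the minimum only through their ILC2 UMIs. The count and the medians of the list lean on these genes and are descriptions only. The median log2 ratio of this list was 2.26 against T cells and 1.81 against NK cells, with medians of 0.11 and -0.04 over all measured genes. Without Arg1, 6 of 11 members were higher and the medians were 1.53 and 1.11. Vipr2, the receptor for vasoactive intestinal peptide, was at 41.5 CPM in ILC2 against 2.02 and 7.06 CPM. Ramp1, a subunit of the CGRP receptor, was detected in 70.1% of ILC2 at 263 CPM, against 91.6 CPM in T cells and 123 CPM in NK cells, and its partner Calcrl gave 14 UMIs. Ltb4r1, the leukotriene B4 receptor, was at 223 CPM in ILC2 against 28.0 and 8.19 CPM. Both leukotriene receptors, Cysltr1 and Ltb4r1, were found together in 70 ILC2. Nmur1, the neuromedin U receptor of ILC2, gave 3 UMIs, and Ptgdr2 and Tph1 were at 0. The summed level of the list was between 874 and 1529 CPM in ILC2 of the 9 libraries and at most 478 CPM in T cells and 568 CPM in NK cells. Without Arg1 it was between 788 and 1254 CPM in ILC2 and at most 472 CPM in T cells and 563 CPM in NK cells. Ptgir, Cysltr1, Arg1 and Alox5 are also among the 20 leading genes, which were picked from the same counts.

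Genes of residency, adhesion and migration were mixed. Of 21 measured members 1 was higher (Ccr9) and 6 were lower (among them Itgae, Itgb1, Itgal, Klf2 and Cxcr3). Cxcr3, the chemokine receptor of type 1 lymphocytes, was at 0 in ILC2, at least 72.9-fold lower than in T cells, and the integrin Itgb1 was at 43.6 CPM against 391 CPM in T cells. Itgb7, an integrin of gut-homing cells, was found in 80.9% of ILC2 at 358 CPM, against 244 and 227 CPM in T and NK cells. Of the recirculation genes, S1pr1 gave 5 UMIs in ILC2 and Ccr7 was at 0. Ccr2 was at 527 CPM in ILC2, 138 CPM in T cells and 270.4 CPM in NK cells, and Cxcr6, a receptor of tissue-resident lymphocytes, at 525, 789.8 and 579 CPM.

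Ccr9 varied widely between libraries. It was at 515 CPM in WT at 9 months, 459 CPM in APP/PS1 at 9 months and 515 CPM in Nlrp3KO APP/PS1 at 9 months, and at 0 in the 5 ILC2 of Nlrp3KO at 9 months, where 3 counts correspond to 127 CPM. In the libraries of 3 and 6 months it lay between 33.9 and 208 CPM. Age equals batch in these data, so that both cannot be told apart. Ccr9 was found in 41 ILC2 and Klrg1 in 46, and 10 cells held both. Arg1 was found in 75 ILC2, among them 22 of the 41 cells with Ccr9 and 23 of the 46 with Klrg1. Arg1 ranged from 84.9 to 412 CPM over the 9 libraries, highest in WT at 9 months and lowest in Nlrp3KO at 9 months.

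Cytotoxic genes were at or near 0. Of 10 genes, 9 were lower in ILC2 than in both T and NK cells, and 7 were at 0. Nkg7, a protein of cytotoxic granules, gave 2 UMIs in ILC2 against 1508 CPM in T cells and 2240.0 CPM in NK cells, and Gzma was at 0, at least 1072-fold lower than in NK cells. The other 3 were Prf1 with 1 UMI, Nkg7, and the protease gene Ctsw at 46.9 CPM, 8.12-fold lower than in T cells. The 10 genes with the lowest ratio of ILC2 to both types were Nkg7, the chemokines Xcl1 and Ccl5, Ly6c2, Ms4a4b, Itga1, Cxcr3, Klrk1, Gzma and Klrd1. Of 8 proliferation genes, 4 were lower in ILC2 and none higher. One of the 4, Birc5, was at 0 in ILC2 and bounded at only 1.55-fold lower than in NK cells, and without the prior count Cdk1 (1 UMI in ILC2) took its place. Mki67, a marker of dividing cells, gave 1 UMI against 69.9 CPM in T cells.

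Of 9 measured immediate early genes, 5 were at least 2-fold higher in ILC2 than in both T and NK cells (Fos, Fosb, Jun, Junb and Ier2) and none was at least 2-fold lower than in both. The other 4 were not higher by this rule, among them Jund at 788.7 CPM in ILC2 and 777 CPM in NK cells, and Nr4a1 at 5.45 and 10.2 CPM. Junb was at 870.5 CPM in ILC2 against 191 CPM in T cells and 245 CPM in NK cells, and Jun at 521 CPM against 134 and 158 CPM. Junb was higher in ILC2 than in T cells and in NK cells of the same library in 9 of 9 libraries, with levels from 371 to 1274 CPM. The brains had been dissociated in the presence of actinomycin D, which blocks transcription, and how far the handling contributed to these levels was not tested.

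Of the inflammasome genes, Nlrp3 gave 2 UMIs in all ILC2, 1 each in WT at 3 and at 6 months. The adaptor Pycard was at 98.2 CPM in ILC2 against 163 CPM in T cells and 331 CPM in NK cells, Casp1 at 97.1 CPM against 70.8 and 64.7 CPM, and the pore-forming effector Gsdmd at 34.9 CPM. Il1b, Il33 and the IL-1 receptor Il1r1 were at 0. None of the 6 measured members was at least 2-fold higher or lower than in both T and NK cells.

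ILC2 made up between 1.43% and 4.65% of the non-microglial CD45+ cells of a library. The lowest share was that of APP/PS1 at 3 months (4 ILC2, exact 95% interval 0.391% to 3.62%) and the highest that of Nlrp3KO APP/PS1 at 3 months (42 ILC2, 3.37% to 6.23%). The intervals cover counting error only. In WT mice the share was 2.96%, 4.16% and 3.81% at 3, 6 and 9 months, and in Nlrp3KO mice 4.10%, 3.40% and 2.23%. In APP/PS1 mice at 9 months it was 2.07%, and in Nlrp3KO APP/PS1 mice 1.496%. Fewer ILC2 and more of the other cells cannot be told apart in such shares, and T cells made up 58.1% and 59.4% of the non-microglial cells in the 2 libraries with the transgenes at 9 months, against 7.26% to 38.0% in the other 8.

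**Figure D4:**
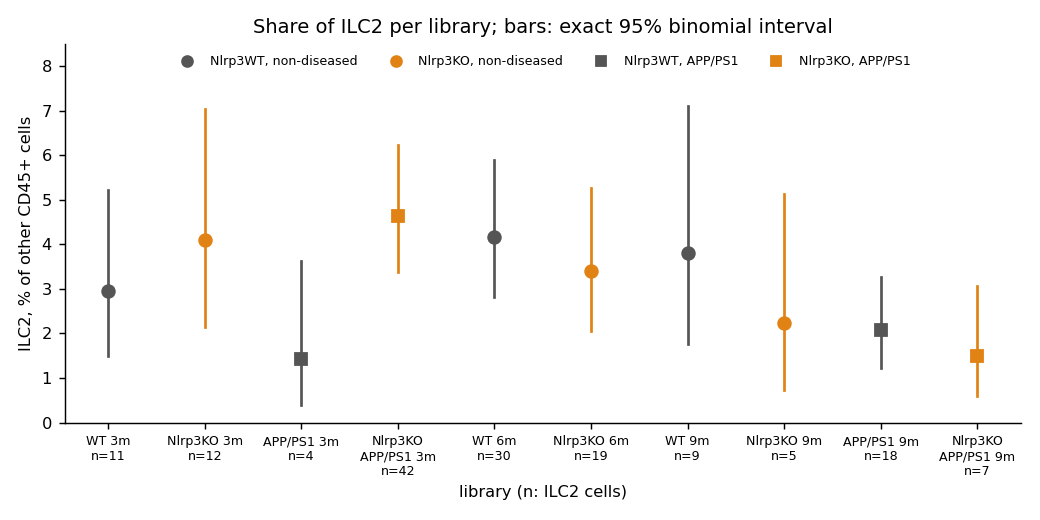
Share of ILC2 among non-microglial CD45+ cells in each of the 10 libraries (points; squares, APP/PS1; orange, Nlrp3KO) with exact 95% binomial intervals. The shares run from 1.43% to 4.65%, and the intervals of most libraries overlap.

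Whether loss of Nlrp3 moved the share was compared over 5 pairs of libraries of the same age and background. The mean share was 3.17% in Nlrp3KO and 2.89% in Nlrp3WT libraries, a difference of 0.287 percentage points (SD 1.91, n = 5 pairs), and it was higher in 2 of 5 pairs. The difference was smaller than the spread between pairs (two-sided exact sign-flip permutation test, p = 0.8125, where 0.0625 is the smallest p that 5 pairs allow). The 5 pairs differed by 1.14, -0.762, -1.58, 3.22 and -0.578 percentage points, in the order of non-diseased mice at 3, 6 and 9 months and APP/PS1 mice at 3 and 9 months. Without the pair of APP/PS1 mice at 3 months, the mean difference was -0.446. The Nlrp3 difference in non-diseased pairs (-0.402) and in APP/PS1 pairs (1.32) was not distinguished (exact permutation test of the pair labels, p = 0.4, smallest possible 0.1).

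APP/PS1 mice were compared with non-diseased mice over 4 pairs of the same age and Nlrp3 genotype. The mean share was 2.41% with the transgenes and 3.28% without, a difference of -0.864 percentage points (SD 1.04, n = 4 pairs), and it was higher in 1 of 4 pairs (two-sided exact sign-flip permutation test, p = 0.25, smallest possible 0.125). As a share of all CD45+ cells, microglia included, ILC2 were instead higher with the transgenes in 3 of 4 pairs (0.372% against 0.214%, exact permutation p = 0.25), so the direction depended on the cells in the denominator.

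Gene levels in ILC2 were then compared between genotypes with edgeR on counts summed per library, in 1 fit over the 9 libraries with at least 5 ILC2 and with age, background and Nlrp3 genotype as terms. Each genotype and age is 1 library, so p-values measure the spread that these terms leave between pools of mice. In Nlrp3KO against Nlrp3WT libraries, 4 of 1134 genes tested (0.353%) passed an adjusted p of 0.05, all lower in Nlrp3KO, with 53 genes at an unadjusted p under 0.05. They were Nfkbia, which encodes the NF-kB inhibitor IkB-alpha, and C1qa, C1qb and C1qc, the chains of complement C1q, which microglia express at high levels. None of these calls was made by DESeq2, which called 0 genes (21 at an unadjusted p under 0.05).

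The 3 C1q genes moved with the doublets of 2 libraries. C1qb was at 732 CPM in the ILC2 of WT at 6 months and at 43.0 CPM there without the 3 cells with a doublet score over 0.5, against 9718 CPM in the microglia of that library. In Nlrp3KO APP/PS1 at 3 months, without its 1 such cell, C1qb went from 203 to 93.9 CPM, C1qa from 224 to 71.8 CPM and C1qc from 187 to 82.9 CPM. In the other 8 libraries C1qb in ILC2 lay between 0 and 119 CPM. The T cells of WT at 6 months also had more C1qb than those of Nlrp3KO at 6 months, 1463 against 457.5 CPM. In the NK cells of these 2 libraries the order was the reverse, 241.6 against 441.4 CPM. The log2 difference of C1qb was -3.09 (SE 0.49, edgeR adjusted p = 0.00225), that of C1qa -2.96 (SE 0.58, adjusted p = 0.0223) and that of C1qc -3.42 (SE 0.69, adjusted p = 0.0256). Without the cells of a doublet score over 0.5, and likewise without the library of Nlrp3KO APP/PS1 at 3 months, Nfkbia was the only gene called, but the C1q genes then failed the filter on low counts and were not tested. Leaving out that library does not touch the pair at 6 months, where C1qb was at 732 CPM in WT and 47.3 CPM in Nlrp3KO. Without WT at 6 months or without Nlrp3KO at 6 months the C1q genes were tested and none was called. The log2 difference of C1qc was 0.05 without WT at 6 months and -0.11 without Nlrp3KO at 6 months, the only partner of that library. In the same 2 fits that of C1qa was -0.05 and -0.18, and that of C1qb -1.04 and -1.02.

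Nfkbia was lower in Nlrp3KO than in its partner library in 4 of the 5 pairs. Non-diseased mice at 3 months had 932 CPM in WT and 359 CPM in Nlrp3KO, those at 6 months 563 and 166 CPM, and those at 9 months 185 and 42.5 CPM. APP/PS1 mice at 9 months had 182 CPM, and 73.5 CPM without Nlrp3, while at 3 months the 4 ILC2 of APP/PS1 had 263 CPM and those of Nlrp3KO APP/PS1 267 CPM. The means were 181 ± 132 CPM in Nlrp3KO (SD, n = 5) and 465 ± 359 CPM in Nlrp3WT libraries (n = 4), with overlapping ranges and a log2 difference of -1.62 (SE 0.25, edgeR adjusted p = 0.00225).

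The Nfkbia call was lost without 1 cell. Of the 55 Nfkbia UMIs of WT at 3 months, 46 were in 1 of its 11 ILC2, and without this cell the library was at 174 CPM, below the 359 CPM of Nlrp3KO at 3 months. A single cell also held 43 of the 123 UMIs of WT at 6 months. Without the former cell the log2 difference was -0.90 and the edgeR adjusted p = 0.731, and without both cells it was -0.63 (adjusted p = 1). The cell of WT at 3 months held 8 UMIs of Gata3 and 2 of Il1rl1, with a doublet score of 0.00101. Without the whole library of WT at 3 months Nfkbia was called (log2 -1.75, edgeR adjusted p = 0.014), as it was without any other 1 of the 9 libraries (adjusted p between 0.000765 and 0.0268). It was not called by DESeq2 (adjusted p = 0.0984) or with all 10 libraries in the edgeR fit (adjusted p = 0.0914).

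**Figure D5:**
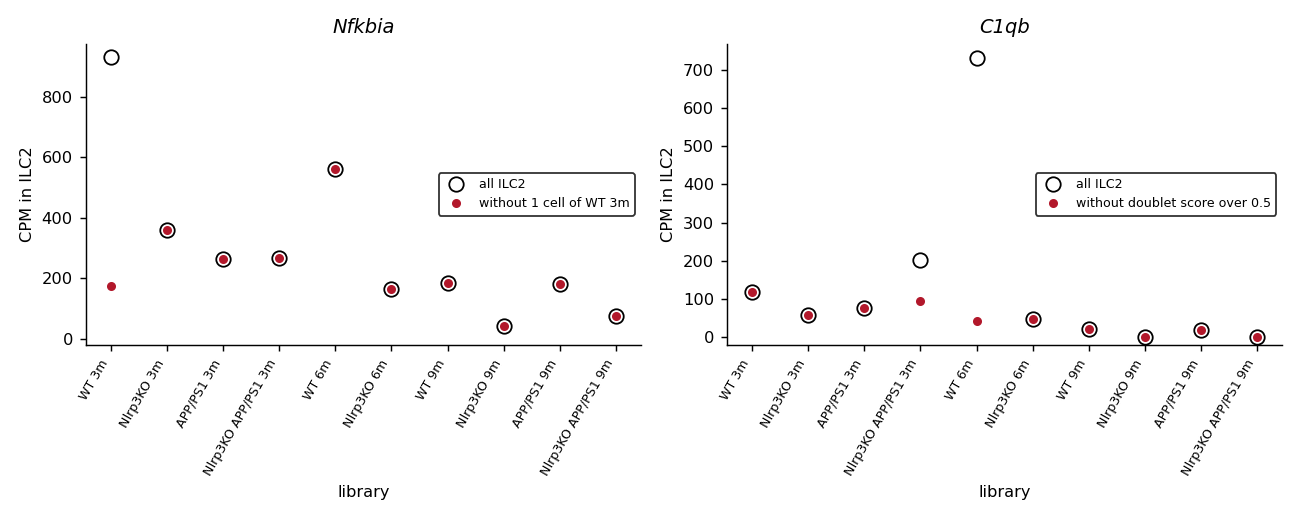
Level of Nfkbia (left) and C1qb (right) in the ILC2 of each of the 10 libraries, in CPM. Open circles are all ILC2, and red points leave out 1 cell of WT at 3 months (left) or the 4 cells of a doublet score over 0.5 (right). Nfkbia in WT at 3 months falls from 932 to 174 CPM, and C1qb in WT at 6 months from 732 to 43.0 CPM.

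Of the 203 genes on the lists, 48 had enough counts to be tested, of which 1 was called (Nfkbia, lower in Nlrp3KO) and 9 had an unadjusted p under 0.05, against 4 (0.353%) and 53 of all 1134 genes tested. Gata3 was at 942 ± 132 CPM in Nlrp3KO (SD, n = 5) and 998 ± 184 CPM in Nlrp3WT libraries (n = 4), and Il1rl1 at 695 ± 138 and 556 ± 139 CPM. Both differences missed the threshold (log2 -0.02, SE 0.17, and log2 0.27, SE 0.21, edgeR adjusted p = 1 for both). The residency marker Cd69 was at 203 ± 101 CPM in Nlrp3KO and 95.1 ± 52.2 CPM in Nlrp3WT libraries (log2 1.22, SE 0.36, adjusted p = 0.451). It gave 1 UMI in the ILC2 of WT at 3 months, and 1 ILC2 held 15 of its 153 UMIs. Cd69 was called, higher in Nlrp3KO, without Nlrp3KO at 9 months and in a fit on the 6 libraries with at least 10 ILC2 (log2 1.65, edgeR adjusted p = 0.00102). Ltb4r1 was at 282 ± 24.9 and 171 ± 78.4 CPM (log2 0.68, SE 0.27, adjusted p = 0.728). Arg1 differed by log2 0.71 (SE 0.38, adjusted p = 1), and was called in the fit on those 6 libraries (log2 1.27, adjusted p = 0.0118), which had 1 residual degree of freedom. The plan had been to run no fit with so few, so the calls of Cd69 and Arg1 there are weak.

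In APP/PS1 against non-diseased libraries edgeR called 0 of 1134 genes (0%), with 56 at an unadjusted p under 0.05, and DESeq2 called 0, with 9. The smallest adjusted p was 0.115, that of C1qb and of Ctla2a, a cysteine protease inhibitor. For C1qb the fitted log2 difference of 3.07 (SE 0.67) ran against the group means, 73.4 ± 112 CPM with the transgenes (SD, n = 3) and 163 ± 282 CPM without (n = 6), so no direction is given. Ctla2a was at 379 ± 95.9 CPM with the transgenes (SD, n = 3) and 729 ± 318 CPM without (n = 6, log2 -1.19, SE 0.25). It was called in 3 of the 9 fits that left out 1 library, those without WT at 6 months, Nlrp3KO at 6 months or WT at 9 months. Of the 48 listed genes tested, none was called and 5 had an unadjusted p under 0.05, among them Calca (log2 -1.79, SE 0.80, edgeR adjusted p = 0.994) and Icos (log2 -0.98, SE 0.41, adjusted p = 0.994). In the fit on the 6 libraries with at least 10 ILC2 the log2 difference of Icos was -1.51. There APP/PS1 at 9 months was the only library of its age, so this difference rested on Nlrp3KO APP/PS1 at 3 months alone.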

How the data were processed

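Transcripts of sorted CD45+ brain cells were counted per cell with a droplet method (10x Genomics, 3' ends). By the methods and processing notes, reads were aligned to mm10 with STAR within Cell Ranger, and cells far from the rest in total counts, detected genes or mitochondrial reads were dropped, before the authors clustered and annotated the cells. The authors deposited UMI counts per gene and cell, not normalized (31053 genes), with a table that holds cell types, a doublet score, a mitochondrial percent and a ribosomal fraction. It also lists 2 sample names (6897 cells) that no sample label carries, and these cells were left out. Members and gene lists were chosen with earlier results of these data known.

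Counts were summed over the cells of a type, over all libraries or per library, and divided by their total (CPM). Log2 ratios used a prior count of 2. Genes are named where they are on a list, among the 20 leading or 10 lowest genes, or called between genotypes. Ctla2a was named after its values were seen. No cell was removed as a doublet in the main values. A count of 0 was set against 3 counts. Shares of cells have exact 95% binomial intervals, and to compare depths each cell was also thinned to 1500 UMIs. Genotypes were compared with exact sign-flip permutation tests over pairs of libraries and with edgeR 4.0.16 (quasi-likelihood test, TMM, filterByExpr, Benjamini-Hochberg adjustment, 4 residual degrees of freedom), and with DESeq2 1.42.0 as an alternative. On simulated counts the edgeR fit recovered 89.5% (Nlrp3, 1338 genes tested) and 81.5% (APP/PS1, 1177 genes tested) of 200 genes changed by a log2 of 2, with 8 and 7 false calls. The simulated counts had the same dispersion for every gene and no doublets. Changed genes were drawn from those that passed the filter. Recovery at the spread of the measured counts was not tested.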

Additional observations from a re-analysis of the deposited data

Results flagged for a closer look

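Dixon's test at the 95% level was run on the share of ILC2 and on 13 gene levels in the Nlrp3WT, Nlrp3KO, non-diseased and APP/PS1 libraries where at least 4 values were at hand, and 6 of 43 tests picked out a library that was far from the others. Chance gives about 1 in 20. Gene levels were tested in the 9 libraries with at least 5 ILC2, so APP/PS1 at 3 months (4 ILC2) was not among them. That library had 487 CPM of Cysltr1 and 225 CPM of Ltb4r1. In the 5 ILC2 of Nlrp3KO at 9 months, Il1rl1 was at 934.1 CPM, where the next of the Nlrp3KO libraries had 686 CPM, and Calca was at 551.9 CPM, where the next had 149.7 CPM. In the 9 ILC2 of WT at 9 months, Ccr9 was at 514.5 CPM, where the next of the non-diseased libraries had 165 CPM. Cysltr1 was there at 473.4 CPM, where the next of the Nlrp3WT libraries tested had 220.2 CPM. In the 11 ILC2 of WT at 3 months, Il4 was at 0, where the next lowest of the non-diseased libraries had 31.5 CPM. Ltb4r1 was there at 288 CPM, where the next of the Nlrp3WT libraries tested had 139 CPM. The 3 libraries have between 5 and 11 ILC2 each, and the number of ILC2 in WT at 3 months allows up to 50.8 CPM of Il4.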

How the results depend on the processing

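The Nlrp3 difference in the ILC2 share was -0.0652 percentage points of all CD45+ cells and -0.234 of lymphoid cells, and leaving out 1 pair gave -0.446 to 0.754. The APP/PS1 difference was 0.158 points of all CD45+ cells, -3.50 of lymphoid cells, -0.318 (2 of 4 pairs higher) without ILC2 that held a UMI of Cd3d, Cd3e or Cd3g, and -1.34 to -0.572 with 1 pair left out. The exact permutation p was between 0.25 and 1 in these settings, but with 1 of the 4 APP/PS1 pairs left out 0.25 is the smallest possible. For Nlrp3, edgeR called 4 genes, DESeq2 0, edgeR without a filter on low counts 16, with pairs of libraries as a block 1 (without Nlrp3KO APP/PS1 at 3 months, which had no partner), with all 10 libraries 0 and without the doublets 1, and leaving out 1 library gave 1 (without Nlrp3KO APP/PS1 at 3 months) to 9 (without Nlrp3KO at 9 months) genes. For APP/PS1 edgeR called 0 genes, without a filter 7, with the block 1 (without WT at 3 months and both libraries of 6 months), and 0 to 4 with 1 library left out (4 without Nlrp3KO at 9 months). The log2 difference of C1qc ran from -4.429 to 0.0499 (without WT at 6 months) with 1 library left out. That of C1qb ran from -3.95 (without WT at 3 months) to -1.02 (without Nlrp3KO at 6 months). Without WT at 6 months, Jund and Nfkbia were among 4 genes called for Nlrp3. Leaving out the ILC2 with the most Nfkbia UMIs, an alternative chosen after seeing the data, replaced Nfkbia by Cx3cr1 among 4 genes called. On the 6 libraries with at least 10 ILC2, with 1 residual degree of freedom, 25 genes were called for Nlrp3 (4 higher) and 20 for APP/PS1 (13 higher), among them the C1q genes in both. The block pairs libraries by age and genotype, since the labels give no replicate numbers that would pair them. On the 8 and 6 libraries it left, the block is the same model as the terms of age, background and Nlrp3, so that its change in calls comes with the libraries left out.

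Of 702 recomputed log2 ratios of 27 genes against T or NK cells, 679 moved by less than the spread between libraries and none changed sign. At 1500 UMIs per cell, Il1rl1 was found in 56.7% of ILC2, 0.188% of T cells and 0% of NK cells, and Arg1 in 23.6%, 0.0626% and 0.73%. Gata3 was then found in 71.3% of ILC2 and Rora in 27.4%, against 96.2% and 62.4% before thinning. Of 8 shares of ILC2 with a UMI that were recomputed, none stayed the same, so the shares of cells given here depend on depth. With 4 to 42 ILC2 per library, levels under about 100 CPM rest on few counts.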

Other observations

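Of 10 measured inhibitory receptors and feedback genes, 2 were at least 2-fold higher in ILC2 than in both T and NK cells (Socs1 and Dusp1) and 2 were lower (Pdcd1 and Lag3), and Socs3 was lower as well without the prior count. Socs1, a feedback inhibitor of cytokine signaling, was detected in 71.3% of ILC2 at 374 CPM, against 154 CPM in T cells and 127 CPM in NK cells. Cish, which restrains IL-2 family signaling, was at 266 CPM against 171 and 139 CPM, and the deubiquitinase Tnfaip3 (A20) at 64.4 CPM against 26.3 and 33.3 CPM. Pdcd1, the PD-1 receptor, gave 12 UMIs in 9 ILC2, Ctla4 gave 1 UMI and Tigit was at 0.

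Of 9 measured genes of lipid and amino acid metabolism, 1 was higher in ILC2, the amino acid transporter Slc7a8, at 120.0 CPM against 8.96 CPM in T cells and 20.9 CPM in NK cells. Its partner chain Slc3a2 was at 134 CPM in ILC2, 128 CPM in T cells and 142 CPM in NK cells, and lactate dehydrogenase Ldha at 467, 249 and 250.1 CPM. Fabp5 gave 14 UMIs and Cd36 was at 0. Slc7a8 was at 95.7 ± 50.8 CPM in Nlrp3KO (SD, n = 5) and 176 ± 54.6 CPM in Nlrp3WT libraries (n = 4), which missed the threshold (log2 -1.10, SE 0.37, edgeR adjusted p = 0.481).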
